A study of Mus musculus with 51 samples.

Results

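Galnt13 and Galnt6 are 2 members of the family of polypeptide N-acetylgalactosaminyltransferases, and their probes were followed over a series of spotted 2-colour arrays in which known amounts of selected genes had been added to mouse hybridoma RNA. Every spot that the platform annotation gives the symbol Galnt13 or Galnt6 was taken, which yielded 6 spots. Each probe was printed as a pair of spots 22 positions apart, so the 6 spots make 3 probes of the 7920 in the data set. Galnt13 has 2 probes, named here by the number of their first spot: probe 7846 lies in print block 23 at row 5 and column 14, and probe 11444 in print block 33 at row 9 and column 4. The annotation lists the same sequence accession, AK038492, for both. Galnt6 has 1 probe (first spot 6, accession NM_172451), in print block 1 at row 1 and column 6. Galnt13 was chosen because its ratio stood out in these data, so the levels of its probes and their differences from the arrays without a spike are given as descriptions, with no test.

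All 51 arrays carried RNA of CRL1606, an established B-cell hybridoma line made by fusing BALB/c mouse spleen cells with a BALB/c myeloma and grown in suspension, which secretes an antibody to human fibronectin. Both channels of an array held RNA of this same line. Per the labels, 100 genes were spiked into channel 1 and another 100 into channel 2, each at 1 amount per array. A group of 6 arrays each stood for 0, 0.05, 0.1, 0.25, 0.5 and 0.75 pmol, and a group of 3 for 0.025, 0.15, 0.2, 1 and 2 pmol. The 0 pmol arrays are self-hybridisations of the line without a spike and serve as the background. The spiked genes are not identified in what was used here. A ratio of the same RNA against itself gives no expression level, so the identity of the line could not be checked against B-cell markers, and the values describe the probes rather than enzyme expression in the cells. Nothing states that replicates of an amount came from separate cultures, so the errors and p-values cover array-to-array variation that may be technical.

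The measurement is 1 log2 ratio per spot. Which channel forms its numerator was not known here, so only its sign, positive or negative, is described. Each array was centred on the median of its spots, which lay between -3.33 and 0.971 on the deposited scale. Between 8370 and 16862 of 16896 spots per array were measured (median 16704). The 1 pmol arrays stood apart: 13.5% to 50.5% of their spots were missing, against 0.201% to 9.29% on the other 48 arrays. The number of arrays limits the precision at every amount.

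Mucin-type O-glycosylation begins in the Golgi apparatus, where a polypeptide N-acetylgalactosaminyltransferase moves N-acetylgalactosamine from its nucleotide sugar onto a serine or threonine of a protein. Many isoenzymes share this step and differ in the tissues that make them and in the peptides they prefer. Galnt13 is known mainly from the nervous system. Galnt6 is known from epithelial and tumour tissue and is able to glycosylate fibronectin. Core-forming and branching enzymes, galactosyltransferases and sialyltransferases then extend the first sugar on carrier proteins such as mucins and leukocyte sialomucins.

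Probe 7846 of Galnt13 was negative on every 0 pmol array on which it was measured and strongly positive on every spiked array on which it was measured. At 0 pmol its centred log2 ratio was -0.38, -0.11, -1.21, -0.24 and -1.18 in replicates 1, 2, 4, 5 and 6, and replicate 3 was blank, with a mean of -0.62 ± 0.53 (SD, n = 5). The 43 spiked arrays that measured it gave 4.71 to 12.68, with a median of 7.66. No spiked array came near the 0 pmol range, whose highest value was -0.11.

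At the lowest amount, 0.025 pmol, probe 7846 read 7.06, 7.27 and 6.51, a mean of 6.95 ± 0.39 (SD, n = 3). At 0.05 pmol its 6 arrays ran from 5.96 through a median of 7.57 to 8.17, and at 0.1 pmol from 6.89 through 7.47 to 8.91. The ratio was therefore already near its median over all spiked arrays at the smallest spike. At 0.15 pmol it read 6.15, 6.06 and 7.19, and at 0.2 pmol 5.88, 5.11 and 6.67, which gave the lowest spiked mean of 5.89 ± 0.78 (SD, n = 3). At 0.25 pmol the arrays ran from 6.77 through a median of 8.15 to 8.53, at 0.5 pmol from 5.12 through 6.81 to 8.26, and at 0.75 pmol from 4.71 through 8.12 to 8.59. The SD over 6 arrays was 1.40 at 0.5 pmol and 1.45 at 0.75 pmol, the widest of the series for this probe. From 0.025 to 0.75 pmol the ratio followed no order by amount, and the 0.2 pmol arrays lay below all arrays at 0.1 and 0.25 pmol.

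At 2 pmol probe 7846 read 10.15, 9.98 and 9.16, a mean of 9.76 ± 0.53 (SD, n = 3). At 1 pmol only replicate 2 measured it, at 12.68, while replicates 1 and 3 were blank. That array had 50.5% of its spots missing and the widest spread of ratios among the 1 pmol arrays, with a median absolute deviation of 0.861, and the part of this in the value was not tested. From low to high, the means ran in the order 0, 0.2, 0.15, 0.5, 0.025, 0.05, 0.75, 0.1, 0.25, 2 and 1 pmol. Neighbours in this order overlapped in range except 0 and 0.2 pmol, 0.25 and 2 pmol, and 2 and 1 pmol.

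Set against 0 pmol in the limma fit of all 51 arrays, the log2 ratio of probe 7846 at 2 pmol was higher by 10.38 (SE 0.65, 95% interval 9.07 to 11.69). The difference was 7.57 (SE 0.65) at 0.025 pmol, 7.89 (SE 0.54) at 0.05 pmol and 8.29 (SE 0.54) at 0.1 pmol. It was lower at 0.15 pmol with 7.09 (SE 0.65) and at 0.2 pmol with 6.51 (SE 0.65), and higher at 0.25 pmol with 8.57 (SE 0.54). At 0.5 pmol it was 7.38 (SE 0.54) and at 0.75 pmol 8.26 (SE 0.54). These comparisons share the 0 pmol arrays and are not independent of one another.

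**Figure D1:**
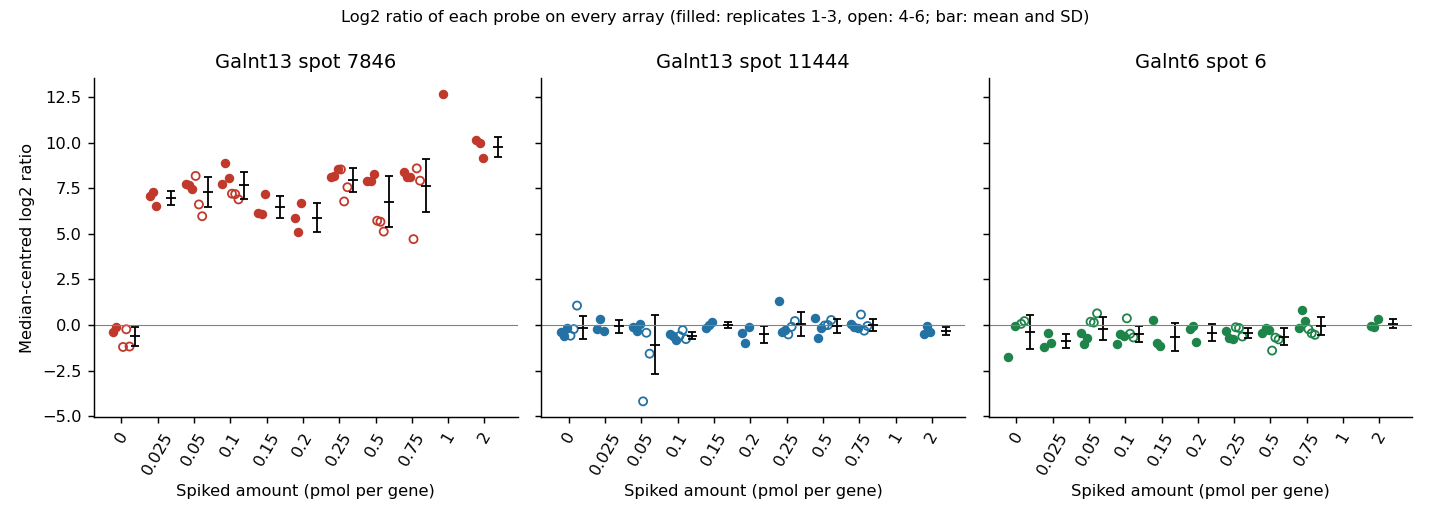
Median-centred log2 ratio (vertical axis) of the 3 probes on every array that measured them, by spiked amount in pmol per gene (horizontal axis, evenly spaced categories). Filled points are replicates 1 to 3, open points replicates 4 to 6, and bars give the mean and SD. Probe 7846 of Galnt13 sits below 0 on the 0 pmol arrays and between 4.71 and 12.68 on spiked arrays, while probe 11444 and the Galnt6 probe stay around 0 apart from 1 low array of probe 11444 at -4.19.

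By its mean ratio, probe 7846 was the most positive of all probes measured on at least 2 arrays at 0.05, 0.1, 0.25, 0.5, 0.75 and 2 pmol. It took place 2 at 0.025 pmol and place 4 at 0.15 and 0.2 pmol. At 0 pmol it took place 6854 of 7920, among the more negative probes. On single spiked arrays it was the most positive probe on 26 of 43, lay in the first 5 on 38 of 43 and never fell below place 11.

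The second probe of Galnt13 did not share this pattern. Probe 11444 read -0.15 ± 0.62 at 0 pmol (SD, n = 6), from -0.63 through a median of -0.30 to 1.06. At 2 pmol it read -0.49, -0.08 and -0.41, a mean of -0.33 ± 0.22 (SD, n = 3). The difference between 2 and 0 pmol was -0.18 (SE 0.49, 95% interval -1.16 to 0.81), an interval that reaches nowhere near the difference of probe 7846. Without replicate 6 of 0 pmol it was 0.066. Of the 42 spiked arrays that measured it, 9 were positive and 33 negative, and 38 lay within 1 of 0. By its mean it took place 7637, 7255 and 7157 at 0.05, 0.1 and 0.2 pmol, among the more negative probes. It took place 4554 of 7920 at 0 pmol and places 3235 to 6072 at the other amounts that measured it.

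At 0.025 pmol probe 11444 read -0.25, 0.35 and -0.33, at 0.15 pmol -0.15, -0.01 and 0.19, and at 0.2 pmol -0.42, -1.01 and -0.12. At 0.1 pmol it ran from -0.84 through a median of -0.59 to -0.28, negative on 6 of 6 arrays. At 0.25 pmol it ran from -0.52 through -0.18 to 1.32, at 0.5 pmol from -0.71 through -0.02 to 0.40, and at 0.75 pmol from -0.31 through -0.08 to 0.57. Its ranges overlapped between all neighbours in the order of the means, and none of its 3 arrays at 1 pmol measured it. The highest value, 1.32 in replicate 1 at 0.25 pmol, comes from 1 spot whose deposited ratio was exactly 0.

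The lowest values of probe 11444 came from 0.05 pmol, where its mean was -1.09 ± 1.62 (SD, n = 6). Replicate 4 read -4.19 from 1 spot, its partner being blank, and replicate 6 averaged -1.58 from spots at 0.04 and -3.19. The other 4 arrays at this amount lay between -0.43 and 0.03. Over all probes, the paired spots at 0.05 pmol correlated with r = 0.50, 0.46 and 0.69 in replicates 4 to 6. In replicates 1 to 3 they correlated with r = 0.96, 0.92 and 0.94. The part of this in the low values was not tested. The difference from 0 pmol was -0.94 (SE 0.40, 95% interval -1.74 to -0.14) with all arrays and -0.32 without replicate 4. Across the remaining amounts the differences ran from -0.44 at 0.1 pmol to 0.20 at 0.25 pmol.

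The Galnt6 probe also stayed near 0. At 0 pmol it read -1.75, -0.05, 0.06 and 0.21 in replicates 1, 3, 5 and 6, a mean of -0.38 ± 0.92 (SD, n = 4). Replicate 2 was blank, and replicate 4 had 1 blank spot and 1 at the upper limit of the values, 16.61, which was treated as missing. At 2 pmol Galnt6 read -0.04, -0.12 and 0.33, a mean of 0.06 ± 0.24 (SD, n = 3). The 2 pmol arrays lay inside the 0 pmol range but for the value of 0.33. The difference was 0.44 (SE 0.40, 95% interval -0.37 to 1.26), and without replicate 1 of 0 pmol it was -0.013.

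At 0.025 pmol the Galnt6 probe read -1.22, -0.44 and -1.01, its lowest mean at -0.89 ± 0.40 (SD, n = 3). At 0.15 pmol it read 0.25, -1.0025 and -1.17, and at 0.2 pmol -0.25, -0.08 and -0.93. At 0.05 pmol it ran from -1.04 through a median of -0.17 to 0.64, with replicates 1 to 3 all negative and replicates 4 to 6 all positive. At 0.1 pmol it ran from -1.03 through -0.57 to 0.36, at 0.25 pmol from -0.75 through -0.48 to -0.13, at 0.5 pmol from -1.40 through -0.57 to -0.19, and at 0.75 pmol from -0.54 through -0.21 to 0.85. Galnt6 was negative on 34 and positive on 8 of the 42 spiked arrays that measured it, and its ranges overlapped between all neighbours in the order of the means. By its mean it took places 6853 to 7151 at 0.025, 0.1, 0.15, 0.2, 0.25 and 0.5 pmol, among the more negative probes. It took place 5861 of 7920 at 0 pmol, and places 4742, 3731 and 3337 at 0.05, 0.75 and 2 pmol. Like probe 11444, it was blank on all 3 arrays at 1 pmol. Its differences from 0 pmol at the other amounts ran from -0.51 at 0.025 pmol (SE 0.40) to 0.33 at 0.75 pmol (SE 0.34).

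Between 0.025 and 1 pmol, none of the 3 probes passed limma's test for a change with the amount after adjustment. The slope on log2 of the amount was fitted over 42 arrays, without the 0 and 2 pmol arrays, and a ratio proportional to the amount would have a slope of 1 per doubling. Probe 7846 was among the most positive probes on these arrays too, so the test bears only on change with the amount among them, and its arrays are not independent of the choice of Galnt13. Probe 7846 changed by 0.17 per doubling (SE 0.13, 95% interval -0.10 to 0.43, limma adjusted p = 0.382, 40 arrays), so the interval lies below proportionality. The slope was 0.03 without the 1 pmol array of replicate 2, and it turned to -0.14 with replicates 4 to 6 alone. It turned to -0.17 with sets of arrays as a covariate. Clustering the arrays on all other probes formed 8 sets, and those that hold only 0 pmol arrays did not enter this fit. Of the sets that entered, 1 held a single array and another held only the 1 pmol arrays. Probe 11444 had a slope of 0.17 (SE 0.08, 95% interval 0.01 to 0.33, limma adjusted p = 0.121, unadjusted p = 0.0370, 39 arrays), the 1 slope of the 3 with an unadjusted p under 0.05. Galnt6 had a slope of 0.05 (SE 0.05, 95% interval -0.06 to 0.16, limma adjusted p = 0.510, 39 arrays). With replicates 1 to 3 alone, Galnt6 had a slope of 0.20 that passed the threshold (limma adjusted p = 0.0116), and with replicates 4 to 6 alone the slope was -0.22 (limma adjusted p = 0.219). In the fit over all 42 arrays 18.8% of all probes passed, 1491 of 7920, with 9.86% positive and 8.96% negative. Without centring 49 passed, 37 positive and 12 negative. The share of all probes that passed with replicates 1 to 3 or 4 to 6 alone is not given here.

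Probe 7846 read lower on average in replicates 4 to 6 than in replicates 1 to 3 at each of the 5 spiked amounts that have both. The means of replicates 1 to 3 and of replicates 4 to 6 were 7.62 and 6.91 at 0.05 pmol, 8.24 and 7.09 at 0.1 pmol, 8.28 and 7.62 at 0.25 pmol, 8.02 and 5.50 at 0.5 pmol, and 8.20 and 7.07 at 0.75 pmol. At 0.75 pmol the order rests on replicate 4, since without it replicates 5 and 6 averaged 8.25. The gap was widest at 0.5 pmol, where the centred ratio read 7.89, 7.90 and 8.26 in replicates 1 to 3 and 5.72, 5.66 and 5.12 in replicates 4 to 6, without overlap. The array medians moved beside it, at -1.38, -0.115 and 0.186 in the first 3 replicates and 0.207, 0.614 and 0.971 in the others. On the deposited scale, before centring, the same arrays read 6.51, 7.79 and 8.45 against 5.92, 6.27 and 6.09, also without overlap.

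At 0.75 pmol replicate 4 gave the lowest spiked value of probe 7846, 4.71, while the other 5 arrays lay between 7.91 and 8.59. Its deposited ratio was 1.67 on an array whose median was -3.04. Over all probes of that array the paired spots correlated with r = 0.198, the lowest of the 51 arrays, and the part of this in the value was not tested. Both spots of the probe gave this low value there, at 4.63 and 4.78 after centring. The difference from 0 pmol at 0.75 pmol was 8.85 without this array.

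**Figure D2:**
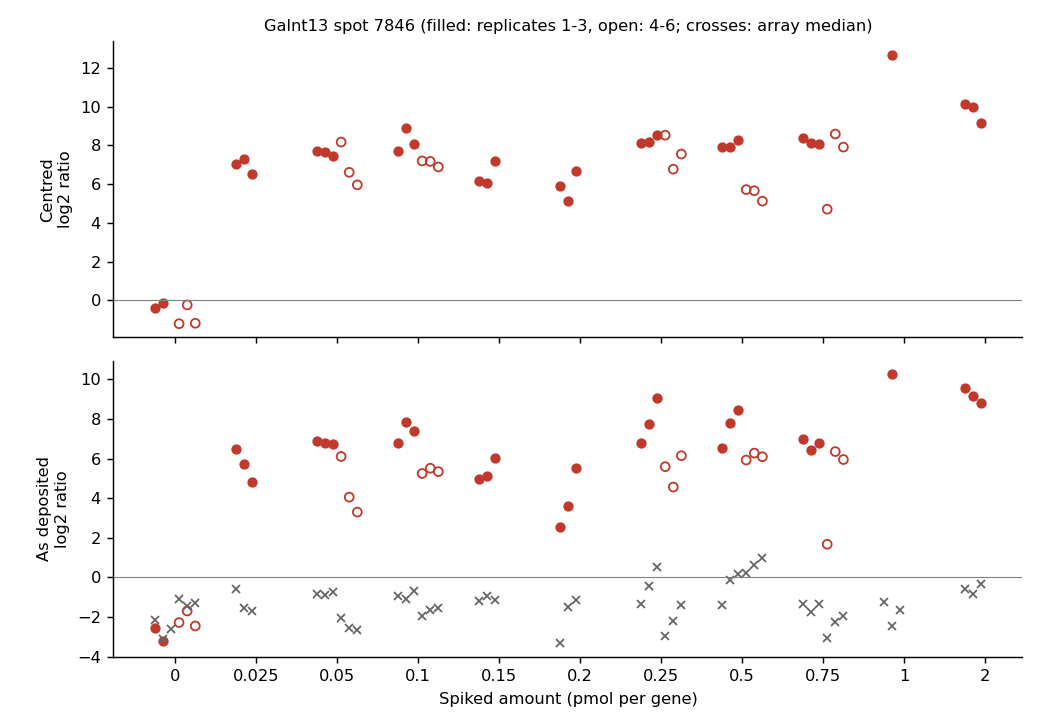
Log2 ratio of Galnt13 probe 7846 on every array, centred on the array median (upper panel) and as deposited (lower panel), by spiked amount in pmol per gene. Filled points are replicates 1 to 3, open points replicates 4 to 6, and crosses are the array medians. The 0.5 pmol arrays separate by replicate number on both scales, and the lowest spiked array, replicate 4 at 0.75 pmol, reads 4.71 centred and 1.67 as deposited.

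The paired spots of probe 7846 gave nearly the same ratio on each array. Their median gap was 0.119 over 48 arrays, the widest was 1.05 on a 0 pmol array, and 3 arrays exceeded 0.5. Over these arrays the spots correlated with r = 0.996, across a span that holds both the spiked and the 0 pmol arrays. For Galnt6 the median gap was 0.203 over 46 arrays, with 11 arrays over 0.5 and r = 0.685. For probe 11444 it was 0.228 over 44 arrays, with 8 arrays over 0.5, a widest gap of 3.23 and r = 0.254. At 0.5 pmol the widest gap between the spots of probe 7846 was 0.182, beside an SD of 1.40 over the 6 arrays, while at 0.025 pmol gaps of up to 0.426 stood beside an SD of 0.39. These correlations are over arrays that share the print layout, and they carry no p-value.

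**Figure D3:**
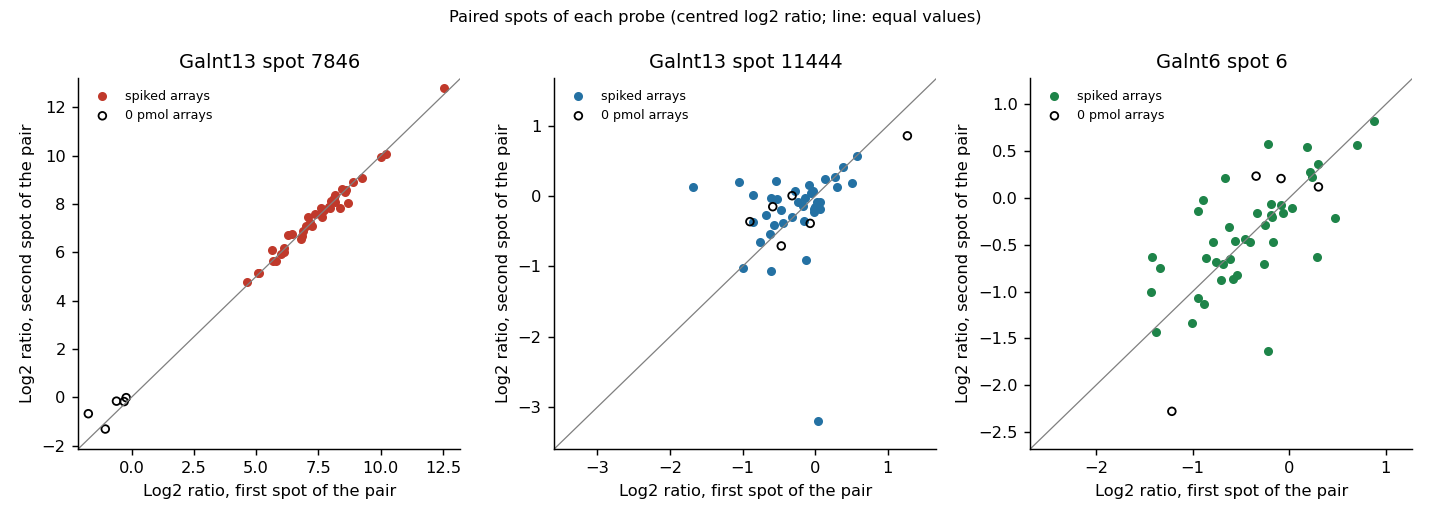
Centred log2 ratio of the second spot of each probe (vertical axis) against its first spot (horizontal axis), 1 point per array with both spots measured. Filled points are spiked arrays, open points 0 pmol arrays, and the line marks equal values. The points of Galnt13 probe 7846 follow the line from the 0 pmol arrays to 12.68, whereas those of probe 11444 form a cloud around 0 with 1 array off the line by 3.23.

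The probes of Galnt13 differed by 4.14 to 12.36 on the 42 spiked arrays that measured both, with a median of 7.60 (probe 7846 minus probe 11444). On the 5 arrays at 0 pmol that measured both, the gap lay between -2.25 and 0.517, so the ranges do not overlap. Because Galnt13 was chosen on this readout, the gap is a description. Over 47 arrays their ratios correlated with r = -0.10.

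To place this gap, every gene with exactly 2 probes of the same symbol and accession was listed, which gave 590 genes. The median gap between the probes of a gene, in the difference of 2 from 0 pmol, was 0.619. It exceeded 2 in 60 genes and 4 in 20 genes. Galnt13 had the widest gap, 10.56, from differences of 10.38 and -0.18. The next were Zfp292, a zinc finger protein, with 8.39, and Sspn, sarcospan of the dystrophin complex, with 7.49. Hk2, hexokinase 2, had probes of opposite sign at -3.11 and 3.79. Of the 55 genes with at least 1 probe more than 2 from 0, 51 had only 1 such probe, 3 had both with the same sign and 1 had both with opposite signs. The probe sequences were not used here, so whether the probes of a gene cover the same stretch was not tested.

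**Figure D4:**
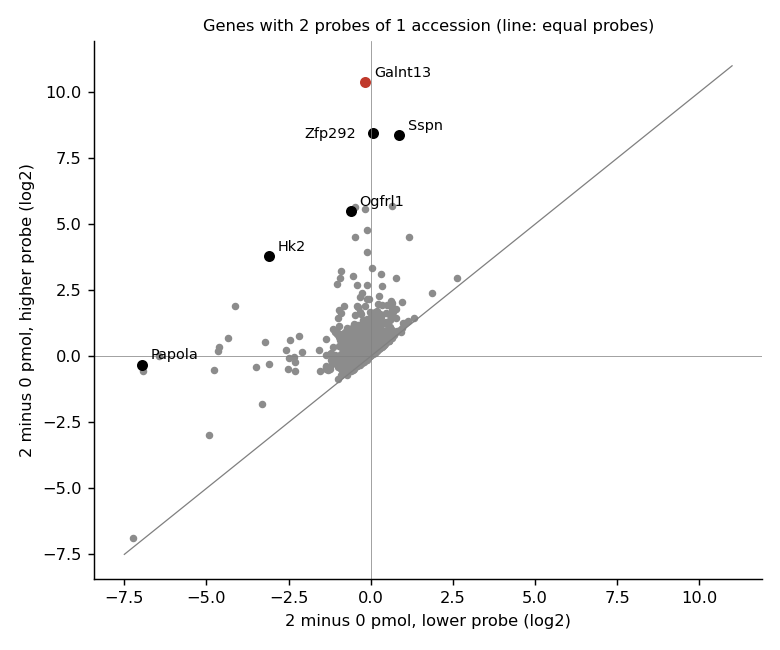
Difference of 2 from 0 pmol (log2) of the higher probe (vertical axis) against the lower probe (horizontal axis) for 590 genes with 2 probes of 1 accession; each point is a gene and the line marks equal probes. Galnt13 lies highest, at 10.38 for its higher and -0.18 for its lower probe, and Zfp292, Sspn, Ogfrl1, Hk2 and Papola are marked for comparison.

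The spots printed around probe 7846 were mostly near 0. Tagap1 to its left differed between 2 and 0 pmol by 0.41, Il25 to its right by 0.41, and the unnamed probe above it by 0.36. Ogfrl1, printed directly below, differed by 5.49. Its ratio was -0.23 ± 0.33 without a spike (SD, n = 6) and 5.26 ± 0.21 in the 2 pmol group (SD, n = 3), and it ran from 1.89 to 5.89 on the 45 spiked arrays. Around probe 11444 the neighbours differed by -0.14 (Memo1), 0.12 (Atl3), 0.51 (Msh3) and -0.51 (unnamed). Around Galnt6 they differed by 0.33 (Matr3), 0.64 (Ttc19) and 0.56 (Mto1).

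The named probes that varied most like probe 7846 over the arrays were Cald1, which encodes the actin-binding protein caldesmon, with r = 0.940, Sspn with 0.930, Tpbg, the trophoblast glycoprotein, with 0.923, and Slc2a5, a fructose transporter, with 0.916, each over 48 arrays. These probes also had high positive ratios, with 2 pmol means of 7.28, 7.96, 7.50 and 7.65, below the 9.76 of probe 7846. After removing the mean of each amount, the correlations were 0.805, 0.806, 0.802 and 0.669, so these probes also moved with probe 7846 between arrays of the same amount. None of the 20 most similar probes lay in its row of a print block, which holds 12.1% of all probes.

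The probes with 1 symbol most like Galnt6 were Prap1 with r = 0.711, Stard13 with 0.650, Trp53i13 with 0.631 and Fgd1 with 0.597, and all 4 lay in the first row of a print block, as Galnt6 does. Among all probes they took places 2, 6, 10 and 21, and the highest r of any probe with Galnt6 was 0.820. Stard13 and Fgd1 also lay in column 6. Of the 20 probes most like Galnt6, 16 lay in its row, which holds 12.7% of all probes, and 4 lay in both its row and its column. For probe 11444 the closest with 1 symbol were Lmna with 0.815, Mapk14 with 0.787, Eif2s2 with 0.774 and Pcmtd1, place 7 among all probes, with 0.747. Of its 20 closest probes, 11 lay within 2 columns of its own, a band that holds 24.2% of all probes. Galnt6 and probe 7846 had r = 0.12 over 45 arrays, and Galnt6 and probe 11444 had r = -0.20 over 46 arrays. The points of these correlations share arrays, print layout and centring, and they carry no p-value.

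None of the other isoenzymes that start O-glycosylation passed the test at 2 pmol, where 15.6% of all 7917 probes tested did so (10.3% positive and 5.33% negative). Without centring 2863 probes passed, 2782 positive and 81 negative, against 817 positive and 422 negative with it. Of the 19 genes listed for this step beside Galnt13 and Galnt6, 7 had a probe. Their differences between 2 and 0 pmol ran from -0.24 to 2.14 with a median of 0.22, beside a median of 0.04 over all probes. Galnt11 differed by 0.61, Galnt7 by 0.45, Galnt4 by 0.22, Galnt2 by -0.04, Galnt18 by -0.19 and Galnt16 by -0.24. At an unadjusted p under 0.05 in limma, 2 of the 7 were positive, Galnt1 and Galnt11, and 0 negative. In the slope test 0 of the 7 passed with limma, with or without adjustment. At the other spiked amounts the list had 0 to 3 calls per amount, beside 4.15% to 42.5% of all probes. Galnt1 passed at 6 of these amounts, Galnt11, Galnt7, Galnt16 and Galnt2 at 1 each, and Galnt4 and Galnt18 at 0.

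Galnt1, a broadly expressed isoenzyme, was singled out after its values had been seen. At 0 pmol it read -0.42 ± 0.48 (SD, n = 6) and at 2 pmol 1.72 ± 0.43 (SD, n = 3), which differ by 2.14 (SE 0.83, limma adjusted p = 0.0722). It passed the threshold at 6 other amounts: 0.1 pmol (difference 2.31, limma adjusted p = 0.0263), 0.15 pmol (3.87, limma adjusted p = 0.00105), 0.2 pmol (3.78, limma adjusted p = 0.00146), 0.25 pmol (2.89, limma adjusted p = 0.00207), 0.5 pmol (2.51, limma adjusted p = 0.00503) and 1 pmol (2.91, limma adjusted p = 0.00403). The shares of probes called positive at these amounts were 4.09%, 6.79%, 6.03%, 8.98%, 14.1% and 15.9%. Galnt1 did not pass at 0.025, 0.05 and 0.75 pmol, where 1.67%, 2.25% and 4.92% of probes were called positive. It passed there in 3, 4 and 1 of the alternatives. With replicates 1 to 3 alone it differed by 2.86 at 0.025 pmol (limma adjusted p = 8.44e-05) and by 3.90 at 0.05 pmol (limma adjusted p = 4.61e-07). The lowest difference of any alternative at 0.05 pmol was 0.017. The positive call at 0.1 pmol was lost without replicate 1, 2 or 3 of that amount or replicate 2 or 3 of 0 pmol, and the difference was 0.22 with replicates 4 to 6 alone. Over all probes, the paired spots at 0.1 pmol correlated with r = 0.40, 0.46 and 0.52 in replicates 4 to 6. In replicates 1 to 3 they correlated with r = 0.96, 0.95 and 0.94, and the part of this in the difference was not tested. The call at 1 pmol was lost with arrays scaled to 1 spread (difference 1.85, limma adjusted p = 0.164). At 2 pmol Galnt1 passed in 3 alternatives: without centring (difference 3.51), with replicates 1 to 3 alone (2.49) and over probes measured on all arrays (2.14, limma adjusted p = 0.0498).

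Among enzymes that extend mucin-type O-glycans, 10 probes of 9 genes were tested, of 21 genes listed. Over all probes tested at 2 pmol, 15.6% were called, 10.3% positive and 5.33% negative. With limma, 0 were called positive and 1 was called negative at 2 pmol. At an unadjusted p under 0.05 in limma, 1 was positive and 2 were negative. The negative call was Gcnt1, the enzyme that branches the core structure, which fell from 0.13 to -1.76 (difference -1.89, SE 0.64, limma adjusted p = 0.0350). Among proteins that carry such glycans, 11 probes of 8 genes were tested, of 23 listed. Cd164, a sialomucin, was the 1 negative call, from 0.68 to -0.48 (difference -1.16, SE 0.41, limma adjusted p = 0.0484), and 0 were positive with or without adjustment. At an unadjusted p under 0.05 in limma, 3 of the 11 carrier probes were negative. The median difference was 0.14 for the extension list and -0.64 for the carriers. Without centring, Gcnt1 differed by -0.52 (limma adjusted p = 0.494) and Cd164 by 0.21 (limma adjusted p = 0.783). Both calls were also lost when replicate 1 or 3 of 2 pmol, or any of replicates 3 to 6 of 0 pmol, was left out; without replicate 3 of 2 pmol the differences were -1.56 and -0.78. Cd164 lost its call in 24 of the 51 fits that leave out 1 array. With the replicate number as a block, the limma adjusted p was 0.0957 for Gcnt1 and 0.100 for Cd164. Neither gene passed at any spiked amount other than 2 pmol.

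Among enzymes of N-glycosylation and other O-linked sugars, 19 probes of 15 genes were tested, of 50 listed. They gave 1 positive and 1 negative call and a median difference of 0.02, while over all probes 10.3% were called positive and 5.33% negative. Stt3b, a catalytic subunit of the oligosaccharyltransferase, rose from -0.25 to 1.19 (difference 1.45, SE 0.31, limma adjusted p = 0.000457). Mgat5, a branching enzyme of N-glycans, fell from -0.09 to -1.33 at its probe 13651 (difference -1.24, SE 0.32, limma adjusted p = 0.00442), while its probe 7307 differed by 0.10. Without centring the difference of Mgat5 probe 13651 was 0.12, and without replicate 3 of 2 pmol it was -1.04 (limma adjusted p = 0.0708). When values at the upper limit were kept, the difference of Stt3b was still 1.45 but its call was lost (limma adjusted p = 0.573). Of the spiked amounts, Stt3b passed only at 2 pmol, and Mgat5 probe 13651 passed at 3.

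Among genes of sugar donor supply, 10 probes of 9 genes were tested, of 31 listed. In limma 0 were called positive (1 at an unadjusted p under 0.05) and 1 negative (2 at an unadjusted p under 0.05), with a median difference of 0.05. Over all probes 10.3% were called positive and 5.33% negative. Nagk, the kinase that salvages N-acetylglucosamine, fell from 0.03 to -4.88 (difference -4.91, SE 0.65, limma adjusted p = 7.56e-08). It was the listed gene farthest from 0 at this amount, opposite in sign to probe 7846, and it passed the threshold at all 10 spiked amounts, negative on 45 of 45 spiked arrays. Over the slope test the lists other than the initiating one gave 1 positive call, Mogs with 0.20 per doubling. They gave 5 negative calls, from -0.13 for Rpn1 to -0.30 for Gcnt1. The lists had 11 carrier, 10 extension, 19 other glycosylation and 10 sugar donor probes in this test. Over all probes 9.86% were called positive and 8.96% negative. All 6 calls of the lists were lost without centring and with the array sets as a covariate. The array sets follow the amount in part, so set and amount cannot be fully told apart in that fit.

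**Figure D5:**
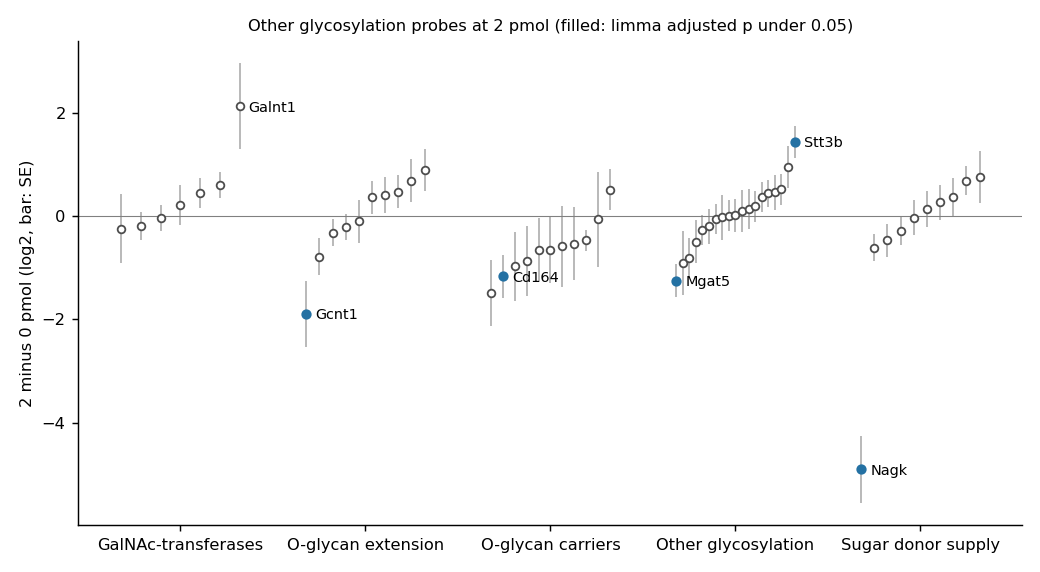
Difference of 2 from 0 pmol (log2, with its SE as a bar) for the probes of the 5 glycosylation lists other than Galnt13 and Galnt6, ordered within each list. Filled points passed the threshold (limma adjusted p under 0.05). Filled are Gcnt1, Cd164, Mgat5, Stt3b and Nagk, and none of the points reaches the 10.38 of Galnt13 probe 7846.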

How the data were processed

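For each spot of the 51 arrays, the authors deposited a log2 ratio of the channels. The base of the logarithm was read from the values, and background subtraction, filtering, normalisation and the channel in the numerator are not given in the sources used here. Amounts and replicates follow the titles of the samples. The members and the gene lists were chosen with earlier results of these data known.

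Values of 16.61, an upper limit reached 1074 times, were treated as missing. Each array was centred on the median of its spots, without 528 control probes in 48 print blocks, and paired spots were averaged. A single symbol was listed for 5347 of the 7920 probes, and none or several for 2573. Symbols come from the platform annotation, updated by Entrez identifier (10766 of 16896 spots matched) with RefSeq names of assembly GRCm38.p6. Centring on array medians removes any shift shared by all probes of an array.

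limma 3.58.1 in R 4.3.3 fitted a mean for every amount over all 51 arrays, and a slope on log2 amount over 42 arrays, two-sided, with Benjamini-Hochberg adjustment over all probes and a threshold of 0.05. A comparison needed 2 or more measured arrays in each group and a slope 10 or more. The fits were tested on simulated data. Named are Galnt13, Galnt6, the 4 probes with 1 symbol most like each over at least 40 shared arrays, the probes printed next to them and up to 4 list genes called at 2 pmol; Galnt1, genes with 2 probes and genes with a called slope were added after their values had been seen. Alternatives covered centring, scaling, the upper limit, single spots, array sets, complete probes, a replicate block, replicates 1 to 3 or 4 to 6 alone, the arrays used and each array left out. Arrays with the same replicate number at different amounts did not deviate together on average (mean correlation 0.007 over 210 pairs, from -0.40 to 0.56). The main fits therefore did not pair arrays by number. A mean over pairs does not test a difference between replicates 1 to 3 and 4 to 6. These fell in different array sets at 0, 0.05, 0.1, 0.25 and 0.5 pmol.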

Additional observations from a re-analysis of the deposited data

Results flagged for a closer look

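In 3 groups of the Galnt13 and Galnt6 probes, 1 array lay farther from its neighbour than Dixon's 95% limit allows for the range of its group. A limit of this kind is passed by chance in about 5% of groups, and groups of 3 arrays were not examined. The Galnt6 probe read -1.75 in replicate 1 at 0 pmol, while the other 3 measured arrays of that group lay between -0.05 and 0.21. Probe 7846 of Galnt13 read 4.71 in replicate 4 at 0.75 pmol, with the other 5 arrays between 7.91 and 8.59. Probe 11444 of Galnt13 read 1.06 in replicate 6 at 0 pmol, with the other 5 arrays between -0.63 and -0.16.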

How the results depend on the processing

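The difference of Galnt13 probe 7846 from 0 pmol stayed positive in all 173 alternatives run over 9 amounts, from 5.80 to 11.62. For probe 11444 and Galnt6 the sign of a difference changed with the setting, and their differences at 2 pmol have intervals that include 0. The interval of probe 11444 at 0.05 pmol, -1.74 to -0.14, does not include 0. Depth is unknown for ratios, and the number of arrays sets the precision.

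Without centring, probe 7846 differed from 0 pmol by 8.12 at 0.025 pmol, 7.81 at 0.15 pmol, 9.28 at 0.5 pmol and 11.62 at 2 pmol. Its uncentred means were -2.44, 5.68, 5.64, 6.35, 5.37, 3.90, 6.66, 5.69 and 9.17 for 0, 0.025, 0.05, 0.1, 0.15, 0.2, 0.25, 0.75 and 2 pmol. Probe 11444 differed by 0.76, 0.19, 1.01, 2.14 and 1.19 at 0.025, 0.1, 0.15, 0.5 and 2 pmol, with uncentred means of -2.10, -1.34, -2.72, -1.91, -1.09, -2.51, -1.25, -1.95 and -0.91 for the same amounts. Galnt6 differed by 1.71 at 0.5 pmol and 1.74 at 2 pmol, with uncentred means of -2.26, -2.15, -1.84, -1.81, -1.74, -2.41, -1.75, -1.998 and -0.53 for the same amounts. Leaving out centring shifts the median difference of all probes at 2 pmol from 0.04 to 1.41. The calls at 2 pmol then numbered 3 for the initiating list, 5 for extension, 6 for other glycosylation and 4 for sugar donors. Over all probes 2863 were called at 2 pmol without centring, against 1239 with it. Cd164 turned to 0.21 and Mgat5 to 0.12. The slope calls were 0 for carriers, extension and other glycosylation, and 49 slopes passed over all probes.

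With the upper limit kept, the 0 pmol mean of Galnt6 was 3.23, because 1 spot of replicate 4 at 16.61 enters, and its differences were -4.12, -3.44, -3.73, -3.87, -3.65, -3.69, -3.87, -3.29 and -3.17 from 0.025 to 2 pmol (1 pmol left out); carriers then had 0 calls and other glycosylation 1. With arrays scaled to 1 spread, probe 7846 differed by 6.23 at 0.025 pmol (mean 5.70) and 10.92 at 2 pmol (mean 10.39). Carriers then had 0 calls and initiating 1 at 2 pmol, where 1597 probes were called over all probes. The slope calls were 0, 0 and 1 for carriers, extension and sugar donors, and 997 slopes passed over all probes. Against 0 in place of the 0 pmol arrays, probe 7846 gave 6.95 at 0.025 pmol and 9.76 at 2 pmol. From 1 spot alone, probe 11444 read -0.83 (first) and -0.36 (second) at 0.1 pmol. Over probes measured on all arrays, initiating and other glycosylation had 1 call each and 913 slopes passed. Galnt13, Galnt6 and Stt3b are not among those probes. The count over all probes at 2 pmol is not given here for this setting or with the upper limit kept.

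The slope of Galnt6 was -0.013 with array sets, 0.20 with replicates 1 to 3 and -0.22 with replicates 4 to 6, and that of probe 7846 was -0.17 with array sets and -0.14 with replicates 4 to 6. With array sets 1 slope passed over all probes, the lists had 0 calls for carriers, extension and other glycosylation, and Mogs turned to -0.066. The sets follow the amount in part, so slopes fitted with them cannot be fully told apart from differences between sets. Gcnt1 turned to 0.070 with replicates 4 to 6. The correlations of the 12 named similar probes were positive in all 60 alternatives, from 0.206 to 0.957. Array sets could not be fitted for the differences, since the 0 pmol arrays form sets of their own. Leaving out 1 array gave slopes of 0.03 to 0.24 for probe 7846, 0.09 to 0.21 for probe 11444 and 0.02 to 0.08 for Galnt6, on the same side of the threshold, and 891 to 1611 slopes over all probes, with 891 without replicate 2 at 0.025 pmol. With the replicate number as a block, probe 7846 differed by 6.86, 6.38 and 9.67 at 0.025, 0.15 and 2 pmol. Carriers and extension then had 0 calls at 2 pmol, for which no count over all probes is given here. In this setting the slopes of probe 7846, probe 11444 and Galnt6 were 0.19, 0.19 and 0.05, and 1472 slopes passed over all probes. The cause of these changes was not tested unless stated.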
